A study of Mus musculus with 27 samples.

Results

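Livers of mice with 1 mutant copy of Mysm1 were compared with livers of wild-type mice. The comparison used 3 heterozygous and 3 wild-type liver arrays, which are 6 of the 27 arrays of a study that covered liver, brain and bone marrow in 3 genotypes. The arrays were chosen by their labels for tissue and genotype. All mice were on the C57BL/6 background. The mutant allele was Mysm1tm1a(KOMP)WTSI, a knockout-first allele carried in the germ line, and the groups were Mysm1+/tm1a (heterozygous) and wild type with no mutant copy. The wild-type group carried no other allele or treatment per the labels, and neither the age nor the sex of the animals is stated there. Each array held total RNA from a snap-frozen liver, labelled with biotin and hybridised to an Illumina BeadChip, and the design text describes the tissue comparisons as between animals. Nothing ties each array to its own animal beyond that text, so p-values measure the spread between these samples. The 6 arrays shared 1 BeadChip, on which the wild-type and the heterozygous arrays lay in 2 separate blocks of positions, so position on the chip and genotype cannot be told apart. The 3 homozygous liver arrays (Mysm1tm1a/tm1a) lay on another chip, so for them chip and genotype cannot be told apart. They entered the estimate of the spread between replicates, and their levels are given beside those of the other groups only for reference.

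MYSM1 is a histone H2A deubiquitinase: it removes ubiquitin from a lysine of H2A, a mark that Polycomb repressive complex 1 places and that is associated with silent genes. Loss of both copies is best known for its effects on blood formation, where p53 is activated and stem cell and B cell development fail. The comparison asked whether a single mutant copy was accompanied by a shift in any pathway of hepatocytes or of the other cells of the tissue, and how large a shift these arrays could have missed.

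The mean deposited signal per array was between 282 and 349, and between 14818 and 16406 of the 45281 probes had a detection p-value below 0.05, on the 6 arrays. A probe was kept when it was detected on at least 3 of the 9 liver arrays, and 1 probe, the one with the highest mean, stood for each gene. This gave 11745 features, of which 9590 were named genes. Levels are log2 values of the normalised intensity after background correction, and a difference is heterozygous minus wild type on that log2 scale. The number of arrays limits the precision. Hepatocyte plasma protein genes were read on all 6 arrays for 22 of 25 listed genes with a median level of 14.08, whereas 4 of 17 B cell markers and 4 of 16 muscle markers were measured, at median levels of 5.28 and 5.03. Xist was detected on all 6 arrays with levels of 8.47 to 10.06, and neither Kdm5d probe was detected on any of them. The other Y-linked readings lay near background: 1 of 2 Eif2s3y probes was detected on 2 heterozygous arrays and 1 of 4 Uty probes on 2 wild-type arrays, at levels up to 5.14. In bulk tissue, fewer cells of a type and less RNA per cell cannot be told apart.

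One wild-type array stood apart for a few genes. On wild-type array 1 Dmbt1, a secreted mucosal scavenger protein, had a level of 10.52, against 4.29 and 4.95 on the other wild-type arrays and 4.21 to 5.03 on the heterozygous ones. Reg1, a secreted protein of the pancreas and gut, read 8.10 there against 4.47 to 5.11 on the other 5 arrays. The smooth-muscle myosin gene Myh11 read 6.89 there against 4.44 to 5.03 on the others. For several genes and lists that rest on this array, values are given with and without it. The whole-array correlation between arrays did not separate the genotypes: r was 0.985 to 0.991 within the wild-type group, 0.984 to 0.991 within the heterozygous group and 0.983 to 0.991 between them, across probes of the same chip.

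Mysm1 itself was lower in heterozygous liver, with no overlap between groups. The single detected probe of 4 had raw signals of 300, 253 and 227 on the wild-type arrays and 168, 162 and 149 on the heterozygous arrays, with bead standard errors of 3.24% to 5.47% of the signal. After normalisation the levels were 7.57, 7.59 and 7.29 in wild type and 6.48, 6.64 and 6.54 in heterozygotes. Every heterozygous level lay below every wild-type level, and the homozygous levels of 5.20, 4.49 and 4.72 lay below both. The difference was -0.93 ± 0.17 (SE, 3 arrays per group) with a 95% interval of -1.32 to -0.55, which is 52.5% of the wild-type normalised intensity (interval 40.1% to 68.5%), at an unadjusted p of 0.000311 and an adjusted p of 0.291 (limma). That intensity holds the added offset of 16 and depends on the background correction, so the percentage is not a share of transcripts. On signals that still held the background (no background correction) the same probe differed by -0.54. The other 3 Mysm1 probes were not detected on any of the 6 arrays, and the position of the detected probe relative to the inserted cassette was not used here.

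**Figure D1:**
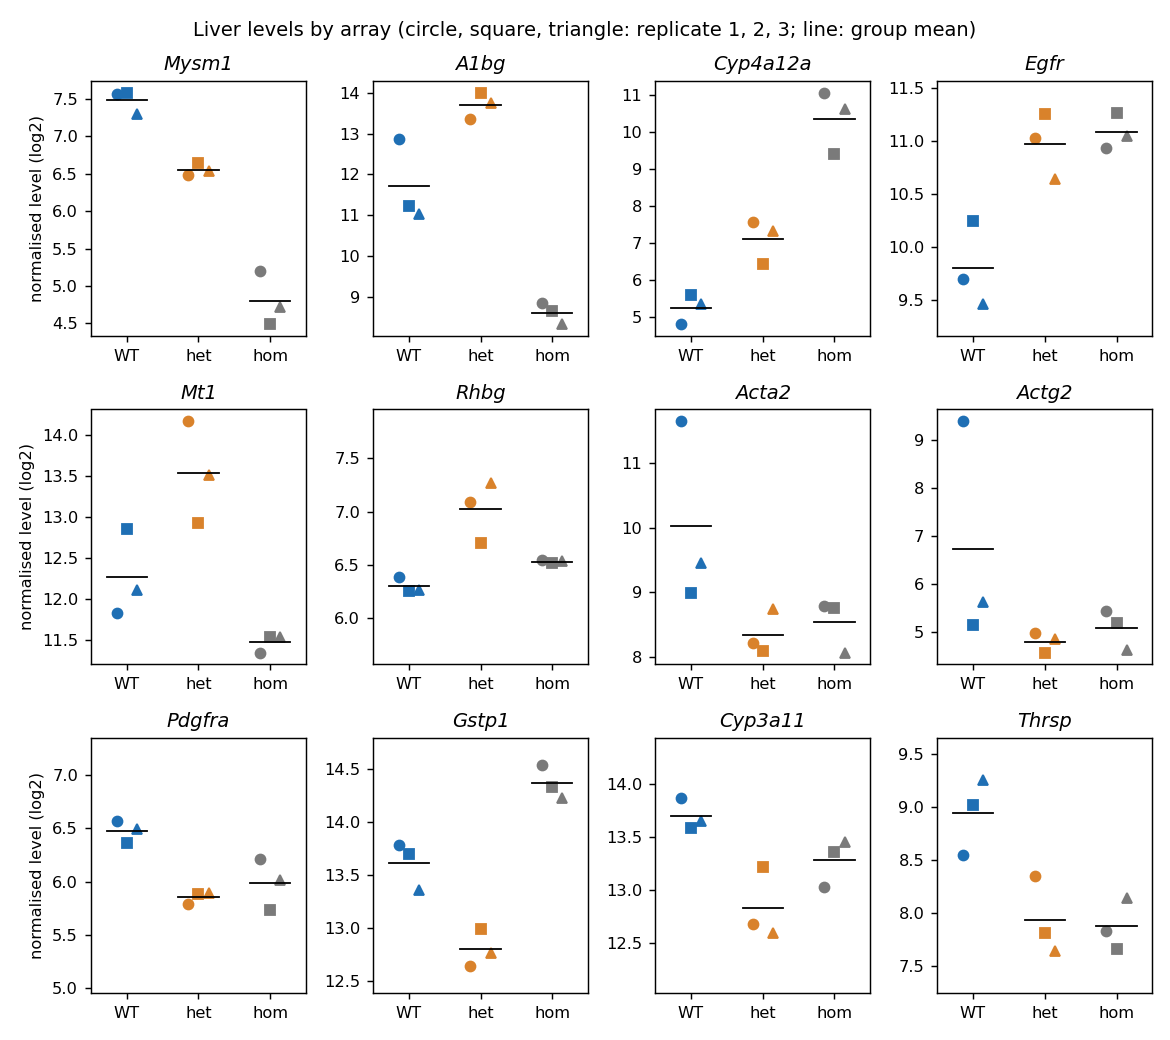
Normalised log2 level of 12 genes on each liver array (y axis; circles, squares and triangles are replicates 1, 2 and 3, lines are group means) for wild type (WT), heterozygous (het) and homozygous (hom) livers. The heterozygous Mysm1 levels of 6.48 to 6.64 sit between the wild-type and the homozygous levels, and wild-type replicate 1 carries the highest Acta2 and Actg2 levels.

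No feature passed an adjusted p of 0.05 in limma: 0 of 11745 features were called, which is 0%, and the smallest adjusted p was 0.107, for a probe without a gene symbol (ILMN_1234756). Mysm1 was therefore not called either. At an unadjusted p below 0.05 there were 846 features (7.2%), where 587.25 would be expected if no feature differed, with 379 higher (3.23%) and 467 lower (3.98%) in heterozygotes. The groups did not overlap for 1355 features (11.5%), 616 higher (5.24%) and 739 lower (6.29%). For comparison, homozygous against the same wild-type livers gave 167 calls (1.42%), on the other chip. Below, values are given for genes chosen by a fixed rule of size and p, and none of the heterozygous differences among them passed the adjusted threshold. The size of a difference depended on background correction: without it, 72 of the 137 genes named by the rule had a difference over 1.5 times smaller. Where that holds for such a gene described here by its fitted difference, the value without correction stands beside it as "uncorrected". Folds given as lower bounds carry no such value. List members outside the rule were not checked in this way, so a missing value does not mark them as stable.

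How large a difference the arrays leave room for was read from the 95% interval of each feature. The median standard error of a difference was 0.14 and the median half-width of the interval was 0.32, with quartiles of 0.27 and 0.40 and extremes of 0.20 and 3.46. The interval lay entirely within a 2-fold difference in either direction for 11378 features (96.9%) and reached beyond it for 367. It lay within 1.5-fold for 8737 features (74.4%), within 1.25-fold for 16.6%, and within 4-fold for all but 19. These intervals are per feature and are not widened for the number of features. A feature with the median standard error would have needed a log2 difference of 1.30 (2.45-fold) to pass the adjusted threshold alone.

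The precision varied with the level. The share with an interval within 1.5-fold was 67.4% of 1430 features at levels under 5, 63.5% of 4577 at 5 to 7, 84.3% of 3208 at 7 to 9, 85.2% of 1647 at 9 to 11 and 85.7% of 883 over 11. The share within 2-fold was 99.02% at levels under 5 and 95.8% to 97.4% in the 4 brighter classes. At levels under 5 the values lie near background. The differences themselves centred on 0.00, with quartiles of -0.11 and 0.11 and 1st and 99th percentiles of -0.56 and 0.50. Median SDs within groups were 0.16 in wild type and 0.16 in heterozygotes.

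**Figure D2:**
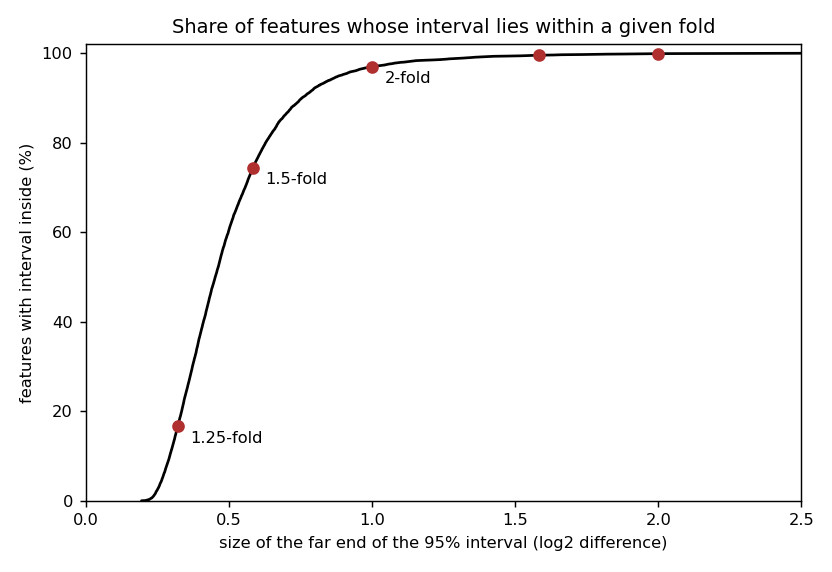
Share of the 11745 features (y axis, percent) whose 95% interval lies inside a given log2 difference (x axis). Red points mark folds. The curve passes 16.6% at 1.25-fold, 74.4% at 1.5-fold and 96.9% at 2-fold.

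Among the genes with the largest higher readings in heterozygotes, several encode liver secreted proteins and enzymes that differ between the sexes. A1bg, a plasma glycoprotein made mainly by female mouse liver, read 12.87, 11.23 and 11.01 in wild type and 13.36, 14.003 and 13.74 in heterozygotes. Wild-type array 1 lay closest to the heterozygous levels. The difference was 2.00 ± 0.41 (limma adjusted p 0.316), and the other A1bg probe had the same sign. Without wild-type array 1 the difference was 2.59 with a limma adjusted p of 0.00756, the only single-array omission that called a gene in this comparison.

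Cyp4a12a, a male-specific fatty acid hydroxylase of the mouse liver, read 4.79, 5.58 and 5.35 in wild type and 7.55, 6.42 and 7.33 in heterozygotes. Groups did not overlap, and the lowest wild-type level was near background. The difference was 1.86 ± 0.42 (limma adjusted p 0.351; 0.83 uncorrected). In the homozygous arrays the mean level was 10.35 for Cyp4a12a and 8.60 for A1bg, so the homozygous minus wild-type differences, which share the wild-type arrays, were 5.11 and -3.10. Of the 23 measured male-biased liver genes, 5 were higher and 1 was lower at an unadjusted p below 0.05, with a list median of 0.12. Over all features these shares were 3.23% higher and 3.98% lower, the figures to set beside each such list count below. Of the 17 measured female-biased genes, 1 was higher and none was lower, with a median of -0.17, against 0.00 over all features. Neither median kept its sign without wild-type array 1, where they were -0.0047 (male-biased) and 0.04 (female-biased). Cyp7b1, an oxysterol hydroxylase of bile acid synthesis, differed by 0.76 ± 0.23, Mup20, a urinary pheromone protein, by 0.60 ± 0.25, and Gstp1, a glutathione transferase, by -0.81 ± 0.15.

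Egfr, the epidermal growth factor receptor, read 9.70, 10.25 and 9.47 in wild type and 11.03, 11.25 and 10.64 in heterozygotes, with no overlap. The difference was 1.17 ± 0.21 (interval 0.70 to 1.64, limma adjusted p 0.291). Its other 4 probes read smaller differences of 0.99, 0.74, 0.29 and 0.19, each with overlapping groups, and the mean over probes was 0.68. Without heterozygous array 1 a different probe had the highest mean and the value was 0.45. Dio1, the deiodinase that activates thyroid hormone, read 9.40, 9.29 and 9.24 against 9.86, 9.98 and 10.14, a difference of 0.68 ± 0.12. These groups did not overlap either, and the 3 wild-type Dio1 levels lay close together.

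Genes of stress response gave mixed values. The metallothionein Mt1, a metal-binding protein, read 11.83, 12.86 and 12.11 in wild type and 14.17, 12.92 and 13.51 in heterozygotes, so heterozygous array 2 lay just above the highest wild-type level. Its difference was 1.27 ± 0.31 and that of Mt2 was 0.80 ± 0.21, the latter (0.26 uncorrected) from levels of 4.47 to 4.85 in wild type that were detected on 1 array. Egr1, an immediate early transcription factor, differed by 1.28 ± 0.31. The 13 measured immediate early genes had 12 negative differences and a median of -0.22, with 1 gene higher and 1 lower at an unadjusted p below 0.05.
Bcl6, a transcriptional repressor active in liver and B cells, differed by 1.04 ± 0.41, Sult3a2, a sulfotransferase, by 1.03 ± 0.27 (0.50 uncorrected), and Saa1, an acute phase protein, by 0.95 ± 0.26. The other Saa1 probe read 0.08 and was not detected on any array of either group. Of 25 measured acute phase genes, 3 were higher, none lower, and the median was 0.07.

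The genes with the lowest readings in heterozygotes were led by the contractile genes of smooth muscle and activated stellate cells, the collagen-producing cells beside the liver sinusoids. Acta2, smooth-muscle alpha-actin, read 11.64, 8.98 and 9.46 in wild type and 8.21, 8.09 and 8.74 in heterozygotes. Wild-type array 1 stood 2 or more above the others, yet the remaining wild-type levels also lay above all heterozygous ones. The difference was -1.68 ± 0.56 with 3 other probes at -1.31, -1.12 and -1.31, and it was -0.88 without that array. Actg2, smooth-muscle gamma-actin, read 9.39, 5.14 and 5.62 against 4.96, 4.56 and 4.85, a difference of -1.93 ± 0.87 (-1.02 uncorrected) that was -0.58 without wild-type array 1. Myl9, a myosin light chain, differed by -1.23 ± 0.29 (-0.51 uncorrected), and by -0.82 without it. Fxyd6, an ion-pump regulator, differed by -1.12 ± 0.34 (-0.61 without it, -0.40 uncorrected), and Ppl, the desmosome protein periplakin, by -1.04 ± 0.33 (-0.66 without it, -0.63 uncorrected). The other Ppl probe read -0.16, with overlapping groups.

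The stellate cell and fibrosis list had the most negative median of the lists with 5 or more members. Of its 30 genes 23 were measured, 22 of these had a negative difference, 14 were lower and none higher at an unadjusted p below 0.05 (3.98% of all features were lower), and 10 were lower without overlap (6.29% of all features). None passed the adjusted threshold, and the median difference was -0.45, against 0.00 over all features. Pdgfra, the receptor of platelet-derived growth factor on mesenchymal cells, read 6.57, 6.37 and 6.49 in wild type and 5.79, 5.88 and 5.89 in heterozygotes, a difference of -0.62 ± 0.13 (-0.27 uncorrected). The groups lay apart, with the arrays of each group close together.
Lum, the matrix proteoglycan lumican, read 7.78, 7.07 and 7.39 against 6.60, 6.67 and 6.89 (-0.69 ± 0.17, -0.41 uncorrected). Cygb, a globin of stellate cells, read 7.62, 7.90 and 7.60 against 6.91, 6.93 and 7.44 (-0.61 ± 0.15). Dcn, decorin, read 12.23, 12.29 and 12.17 against 11.72, 11.79 and 12.03 (-0.38 ± 0.11). In each of these 3 genes the heterozygous levels lay below the wild-type ones without overlap.
The collagen genes of the list varied among themselves: Col1a2 was at 0.09, whereas Col6a1 was at -0.81 ± 0.21 and Col1a1 at -0.67 ± 0.24. No value without wild-type array 1 was taken for these collagen genes. Normalised together with the brain arrays, Col1a1 read 6.85, 6.14 and 5.75 in wild type against 5.36, 5.78 and 5.25, with overlap. The mean over the 23 members, relative to the wild-type mean, was 0.20, -0.07 and -0.13 on the wild-type arrays and -0.55, -0.47 and -0.41 on the heterozygous arrays. Without wild-type array 1, 22 members were measured, 10 were lower at an unadjusted p below 0.05 and the median was -0.36. Without heterozygous array 1, 9 of 22 members were lower. Over the 20 members detected on all 6 arrays the median was -0.44. Negative differences also prevailed in some other non-hepatocyte lists. Endothelial markers had 20 measured members, 17 negative and 3 positive, with 2 lower, none higher and a median of -0.10. Kupffer cell and macrophage markers had 21, 17 negative and 4 positive, with 2 higher, 2 lower and a median of -0.14. Among them the scavenger receptor Marco was at least 1.67-fold lower and not above background on any heterozygous array. Of 6 measured bile duct markers 5 were negative, against 3 of 8 neutrophil and 3 of 9 red cell markers. The part that cell composition has in the difference was not tested.

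**Figure D3:**
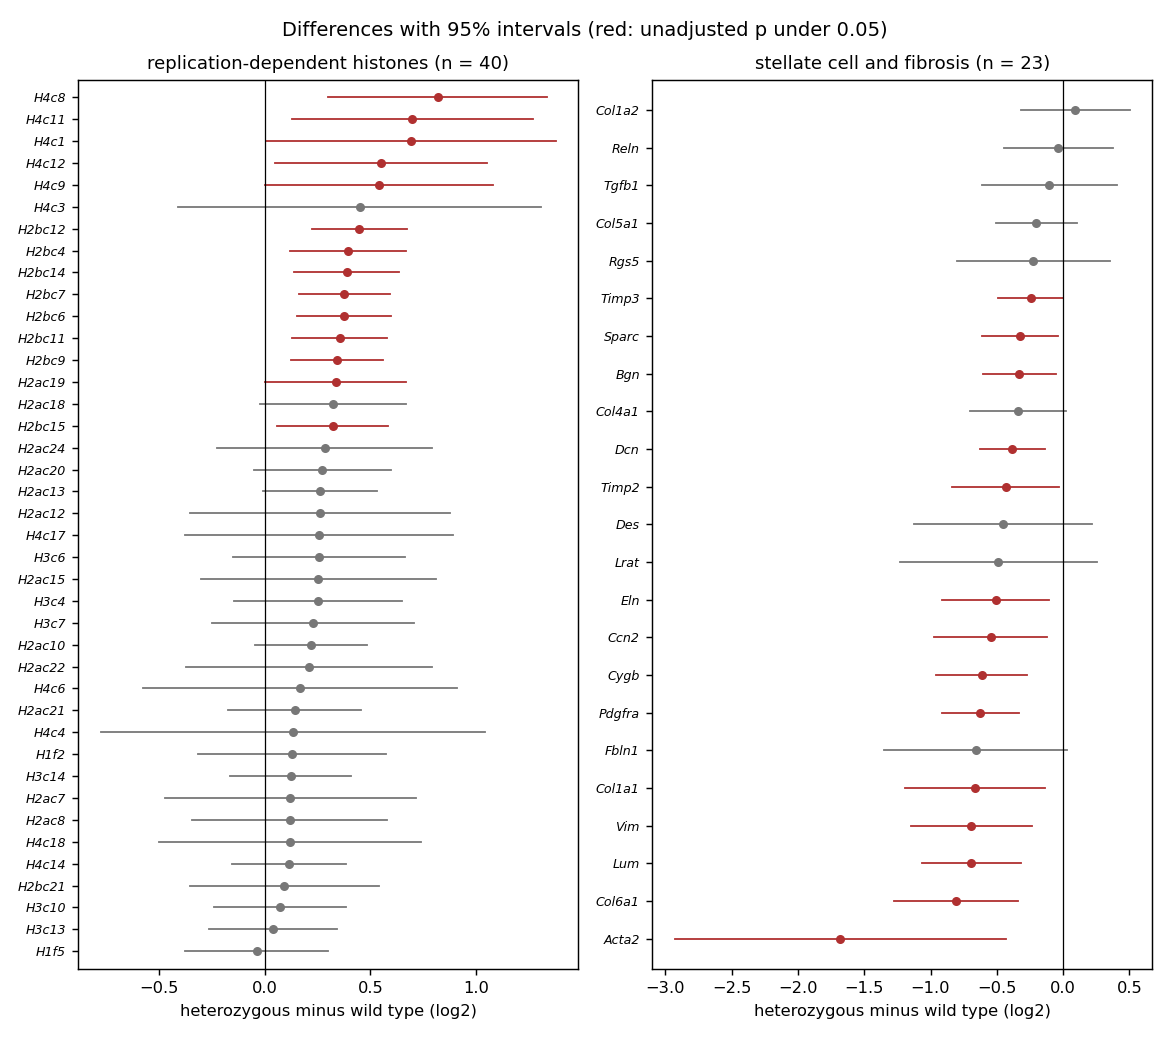
Differences (heterozygous minus wild type, log2; points) with 95% intervals (lines) for the measured members of the histone list (left) and the stellate cell and fibrosis list (right). Red marks an unadjusted p below 0.05: 14 members in each list, all higher among the histones and all lower among the stellate genes.

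The replication-dependent histone genes stood at the other end. Of 61 listed genes 40 were measured, 39 had a positive difference, 14 were higher and none lower at an unadjusted p below 0.05 (3.23% of all features were higher), and 13 were higher without overlap (5.24%), again with none past the adjusted threshold. The median was 0.26. As background, most of these messages end in a stem-loop and lack a poly(A) tail, and the labelling kit primes on poly(A). Its part in these values was not tested. The genes are near-identical copies, and probes of 1 family can read each other's transcripts, so the members are not separate measurements.
H2bc12, an H2B gene, read 9.71, 9.64 and 9.86 in wild type and 10.18, 10.24 and 10.14 in heterozygotes, a difference of 0.45 ± 0.10 with its other probe of the same sign. H2bc7 read 12.43, 12.33 and 12.47 against 12.79, 12.72 and 12.85 (0.38 ± 0.10). H2bc6 read 12.14, 12.01 and 12.19 against 12.43, 12.44 and 12.60 (0.38 ± 0.10). In all 3 of these H2B genes every heterozygous level lay above every wild-type level.
The H4 genes had larger differences and more spread. H4c8 read 6.75, 6.65 and 7.25 against 7.38, 8.15 and 7.57 (0.82 ± 0.23, 0.52 uncorrected), with heterozygous array 2 the highest. That array was also the highest for the list as a whole: the member means were 0.02, -0.07 and 0.05 on the wild-type arrays and 0.14, 0.56 and 0.17 on the heterozygous arrays. Heterozygous array 2 had the highest red cell marker mean as well, at 0.55 against -0.30 to 0.06 on the other 5 arrays, and the part of this in the histone values was not tested. Without that array 9 of 40 histone members were higher at an unadjusted p below 0.05 and the median was 0.18; without wild-type array 2 they were 8 of 40. H2A deubiquitinases, histone variants and replication genes had medians of 0.04 over 15, 0.11 over 8 and 0.00 over 20 measured genes. The homozygous means of H2bc12, H2bc7 and H2bc6 were 9.87, 12.50 and 12.16.

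Histone genes of the H2B family are known to carry an octamer element in their promoters, bound by the transcription factor OCT1. The 200 bases before the RefSeq start sites are shown for 2 H2B genes and for the H4 gene with the largest difference, with the octamer ATTTGCAT, searched on both strands, in capitals (GRCm38.p6, minus strand given 5′ to 3′).
H2bc12 (chr13:22035621-22035820, plus strand): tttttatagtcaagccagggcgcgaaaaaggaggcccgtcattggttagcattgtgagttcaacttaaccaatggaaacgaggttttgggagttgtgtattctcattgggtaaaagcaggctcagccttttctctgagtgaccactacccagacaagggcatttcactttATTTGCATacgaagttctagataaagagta
H2bc6 (chr13:23585971-23586170, minus strand): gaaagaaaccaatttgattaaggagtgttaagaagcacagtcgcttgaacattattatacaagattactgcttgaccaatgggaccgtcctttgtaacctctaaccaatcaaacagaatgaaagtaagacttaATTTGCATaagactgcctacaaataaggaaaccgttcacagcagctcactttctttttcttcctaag
H4c8 (chr13:23530844-23531043, plus strand): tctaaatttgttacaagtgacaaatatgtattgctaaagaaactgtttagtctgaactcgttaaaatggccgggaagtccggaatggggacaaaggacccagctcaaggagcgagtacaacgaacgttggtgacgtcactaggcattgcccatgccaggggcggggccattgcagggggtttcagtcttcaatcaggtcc
The octamer starts 30 bases before the H2bc12 start and 67 bases before the H2bc6 start shown, and these letters are not in the H4c8 window. The other start listed for H2bc6 has none in its window, and neither does the start of H2bc7, the remaining H2B gene described above. It was found in 3 of the 7 measured H2B genes that have a promoter in the table and in 3 of 12 H2A genes, in none of 10 H4 genes, and in 453 of all 32851 promoters (1.38%). A match is a description of letters and not a bound site.

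Genes of lipid synthesis had a negative median. Of 28 measured genes of fatty acid and triglyceride synthesis, 7 were lower and none higher at an unadjusted p below 0.05 (3.98% of all features were lower), and the median was -0.15 against 0.00 over all features. The signs were mixed: 16 of the 28 had a negative difference and 12 a positive one, up to 0.23. The genes named next are all from the negative side. Thrsp, the thyroid hormone-responsive regulator of lipogenesis, read 8.54, 9.02 and 9.25 in wild type and 8.35, 7.81 and 7.64 in heterozygotes (-1.01 ± 0.23). Acly, ATP citrate lyase, read 12.37, 12.71 and 12.44 against 11.99, 11.75 and 12.07 (-0.58 ± 0.14). Neither gene overlapped between groups.
Acacb, the mitochondrial acetyl-CoA carboxylase, differed by -0.53 ± 0.12, Srebf1, the lipogenic transcription factor, by -0.63 ± 0.16 and Pnpla3, a lipid droplet hydrolase, by -0.90 ± 0.26. The list depended on heterozygous array 2, whose member mean was -0.38 against -0.10 on both other heterozygous arrays. Without that array the median was 0.04, so its sign was not kept. Among genes of cholesterol synthesis and uptake, 20 were measured and none was at an unadjusted p below 0.05.

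Genes that mark the position of a hepatocyte along the lobule had medians of opposite sign in their 2 lists. Genes enriched near the portal vein had 14 measured members, with 5 lower (3.98% of all features), none higher and a median of -0.24. Genes near the central vein had 17, with 2 higher (3.23% of all features), none lower and a median of 0.11. Etnppl, an enzyme of ethanolamine metabolism, read 10.18, 9.69 and 10.10 in wild type and 9.08, 9.51 and 8.84 in heterozygotes (-0.85 ± 0.23).
Cps1, the first enzyme of the urea cycle, read 13.82, 13.82 and 13.95 against 13.45, 13.62 and 13.35 (-0.39 ± 0.12), and Hal, histidine ammonia-lyase, differed by -0.50 ± 0.19. On the central side Rhbg, an ammonium transporter, read 6.38, 6.25 and 6.26 against 7.09, 6.71 and 7.27 (0.72 ± 0.14, 0.38 uncorrected). Glul, glutamine synthetase, read 5.46, 5.27 and 5.10 against 5.64, 5.70 and 6.12 (0.54 ± 0.15, 0.19 uncorrected). None of these 4 genes with array values overlapped between groups, and none passed the adjusted threshold. Pck1, the gluconeogenic enzyme of the portal list, went the other way at 0.47 ± 0.38, with wild-type levels spread from 5.31 to 7.21.

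Drug metabolism genes had no common direction. Of 37 measured, 2 were higher, 3 lower, and the median was -0.02. Cyp3a11, the main inducible cytochrome P450 of the mouse liver, read 13.86, 13.58 and 13.65 against 12.68, 13.22 and 12.60 (-0.87 ± 0.18), and Gstm1 differed by -0.49 ± 0.12. The other Gstm1 probe, detected on 1 array of each genotype, read -0.17. Gstp1, of the same detoxification group and named above, read 13.78, 13.70 and 13.36 against 12.65, 12.99 and 12.77, without overlap, while its homozygous mean was 14.37. Ugt1a9, a glucuronosyltransferase, differed by -1.03 ± 0.21, Slc51b, a bile acid exporter subunit, by -1.01 ± 0.32 (-0.35 uncorrected) and Nt5c3b, a nucleotidase, by -1.04 ± 0.22 (-0.35 uncorrected). The other Nt5c3b probe read -0.35, with overlapping groups.
Among the smallest p-values were also Mif, a cytokine-like tautomerase, at -0.57 ± 0.10 (-0.28 by its other probe) and Ndn, necdin, an imprinted growth regulator, at -0.81 ± 0.15 (-0.32 uncorrected). A further 4 genes of that group rested on readings at background in 1 genotype. Chrna4, a nicotinic receptor subunit, was at least 1.77-fold lower, Pde6c, a photoreceptor phosphodiesterase, at least 1.23-fold lower and Notch2, a Notch receptor, at least 1.12-fold lower in heterozygotes, where none of the 3 arrays was above background. The other Chrna4 probe, also at background on those arrays, had a fitted difference of -0.81. Asic5, an acid-sensing channel subunit, was at least 1.19-fold higher, with no wild-type array above background.

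Lists tied to MYSM1 itself had small medians. Among 15 measured H2A deubiquitinases 2 were lower at an unadjusted p below 0.05, Mysm1 and Asxl1, a subunit of the BAP1 deubiquitinase complex (-0.32 ± 0.10, -0.14 uncorrected). Genes of Polycomb repressive complex 1 and other H2A ubiquitin ligases had 23 measured members with 1 higher, 1 lower and a median of -0.06. Named partners of MYSM1 had 13, with 2 lower, Crebbp, a histone acetyltransferase, at -0.50 ± 0.12 (-0.15 uncorrected, and -0.31 without heterozygous array 1) and Gata2, a blood cell transcription factor, at -0.56 ± 0.14 (-0.20 uncorrected), and a median of -0.03.
Targets of p53 had 24 measured members, with 3 higher (3.23% of all features), 1 lower (3.98%) and a median of 0.12. The 3 higher members were Ei24 (0.30 ± 0.10), Apaf1 (0.28 ± 0.10, 0.10 uncorrected) and Gadd45a (0.50 ± 0.20), which act in autophagy, apoptosis and growth arrest, and Trp53i11 was lower. The other Apaf1 probe read 0.09, with overlapping groups. All 13 measured apoptosis regulators were above an unadjusted p of 0.05, and their intervals all lay within 2-fold, as did 96.9% of all features. Interferon-stimulated genes had 32 measured members, 4 higher (3.23% of all features) and 1 lower (3.98%), with a median of 0.07. The T cell attracting chemokine Cxcl9 read 8.99, 9.19 and 9.07 against 10.26, 9.56 and 9.54, a difference of 0.70 ± 0.20 that was 0.47 without heterozygous array 1. On the chromosome 4 neighbourhood of Mysm1, the 5 nearest measured genes on each side included 1 at an unadjusted p below 0.05, Hook1, a microtubule linker, at 0.39 ± 0.11 (limma adjusted p 0.427; 0.11 uncorrected). The RefSeq order of genes was used without coordinates.

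The 51 lists share arrays and in part members, so they are not separate measurements. Of single features 11.5% did not overlap between genotypes, a share that need not hold for list means. Of 48 lists with 5 or more measured members, 12 had array means that did not overlap between genotypes (25%), 5 higher and 7 lower in heterozygotes. Among them were housekeeping controls, 15 measured genes with a median of -0.11, and hepatocyte plasma proteins, 22 genes with a median of -0.04. The p53 targets (higher), the MYSM1 partners (lower) and the H2A ubiquitin ligases (lower) were also among them, with the small medians given above. The list medians were within 0.1 of 0 for 29 lists and within 0.2 for 43, and they were beyond 0.2 for 5: stellate cells, histones, bile duct cells (-0.28 over 6 genes, and -0.09 without wild-type array 1), portal genes and immediate early genes. Over all features 96.9% of the 95% intervals lay within 2-fold, so this is the usual state of a member. In 17 lists the interval of every measured member lay within 2-fold. These included all 48 measured cytosolic ribosomal protein genes (median 0.09), all 66 measured genes of mitochondrial respiration (median 0.08), all 28 proteasome genes (median 0.01) and all 31 genes of complement and coagulation (median -0.03).

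**Figure D4:**
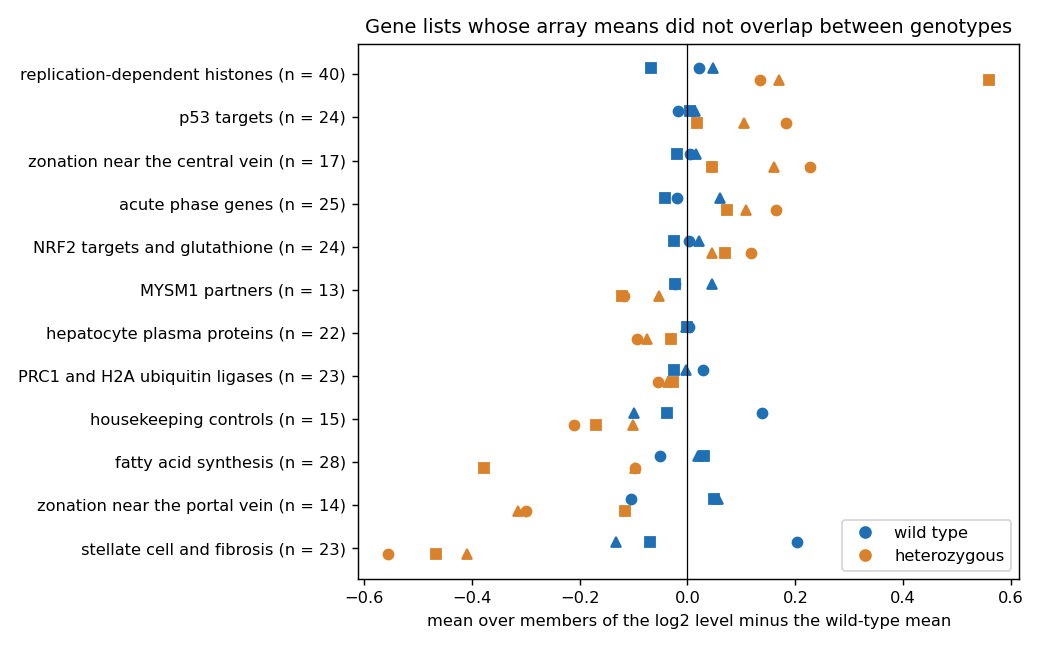
Mean over the measured members of each list of the log2 level minus the wild-type mean (x axis) on each wild-type (blue) and heterozygous (orange) array, for the 12 lists whose array means did not overlap. Circles, squares and triangles are replicates 1, 2 and 3. The stellate list lies at -0.55 to -0.41 in heterozygotes, and the histone list is highest on heterozygous array 2.

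Whether the heterozygous difference in liver differed from that in brain, where the same 2 genotypes were profiled with 3 arrays each, was tested as an interaction over 15843 features after normalising the liver and brain arrays together. In limma 3 features passed an adjusted p of 0.05 (0.0189%), and 986 had an unadjusted p below 0.05 (6.22%), where 792.15 would be expected if none differed. For Mysm1 the liver minus brain difference of differences was -0.16 (limma adjusted p 0.980). The histone list had medians of 0.24 in liver and 0.07 in brain over 44 genes, and the stellate list -0.40 and 0.01 over 25 genes. In brain 35 of the 44 histone genes had a positive difference and 9 a negative one, against 14 and 11 of the stellate genes. No brain median or share of signs over all features is given here to set beside the brain list values. The lipid synthesis medians were -0.10 and 0.01, those of portal genes -0.21 and -0.04, and those of central genes 0.10 and 0.01. No member of these 5 lists passed the interaction test, with 5 of 44 histone and 5 of 25 stellate genes at an unadjusted p below 0.05. The wild-type and heterozygous brain arrays lay on different chips, so chip and genotype cannot be told apart in the brain values.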

How the data were processed

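Per the file headers, the non-normalised table gave, for each of 45281 probes on each array, a mean signal intensity, a bead standard error and a detection p-value. The same probes had linear intensity values in another deposited table, which the authors had already processed. The submitters' processing notes name BeadStudio and limma. Neither a version nor a background setting is stated in those notes as used here.

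Liver signals of 9 arrays were corrected for background with normexp from the detection p-values, given an offset of 16, quantile normalised and put on the log2 scale (neqc). Of the probes, 34885 had 1 gene symbol in the platform annotation, 18 several and 10378 none, and 34807 matched a RefSeq gene. Differences and 95% intervals came from limma 3.58.1 in R 4.3.3, fitted to 3 genotypes without a block over 11745 features, with Benjamini-Hochberg adjustment over all of them. The fit was tested on simulated data. Where a probe was below background on every array of a group, the fold is a lower bound for that probe. It was taken from group means and makes no allowance for their sampling error.

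Genes are named by size (the 10 highest and 10 lowest among features detected on at least 3 of the 6 arrays without overlap between groups), by the 10 smallest p, by the 2 smallest p of each of 51 lists, by spread within a group, and as controls. Other list members, named to fill out a list, were chosen after their values were seen. The genes, lists and tests were chosen with earlier results of these data known. Promoter sequences are RefSeq's (GRCm38.p6), and the genes shown and the motif were chosen after the values were seen. Alternatives covered background correction, scaling, source table, filter, probe choice, spread model, arrays in the fit and each array left out.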

Additional observations from a re-analysis of the deposited data

Results flagged for a closer look

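The heterozygous minus wild-type difference was not alike in liver and brain for 3 features by limma's interaction test over 15843 features, with the liver and brain arrays normalised together. The fitted values are not sizes, because at least 1 liver group of each was not detected on any array. Asic5 had a fitted liver minus brain value of 0.989 (adjusted p 0.0264), with liver levels of 4.58, 4.52 and 4.39 in wild type and 5.55, 5.57 and 5.68 in heterozygotes, and brain levels of 4.26 to 4.54, detected on none of the 6 brain arrays. Its brain difference therefore could not be read, and in liver it was at least 1.19-fold higher in heterozygotes. Of the wild-type and heterozygous groups, only heterozygous liver detected it (3 arrays). It thus met the detection filter through the group where it was high, and its adjusted p is not separate support. Notch2 had a fitted value of -1.09 (adjusted p 0.0488), with liver levels of 5.62, 5.68 and 5.28 against 4.55, 4.50 and 4.50, at least 1.12-fold lower in heterozygotes, and it was detected on 2 of the 6 brain arrays. Of the wild-type and heterozygous groups, only wild-type liver detected it on 3 arrays. Among these groups it met the detection filter only with the liver group where it was high. Its adjusted p is therefore not separate support either. ILMN_1234756, a probe without a gene symbol, had a fitted value of -1.38 (adjusted p 0.0488), with liver levels of 5.84, 5.71 and 5.79 against 4.51, 4.37 and 4.55 and brain levels of 6.52 to 7.15, detected on all 6 brain arrays. In liver it was at least 1.27-fold lower in heterozygotes. The lower bounds of these 3 features come from the liver arrays normalised without brain, unlike the levels and fitted values given here. In all 3 the liver groups did not overlap, and the lower liver group was not above background on any array. None of the 3 passed without background correction, in the processed table, with each tissue normalised alone or with the replicate block, and each lost its call with some single array left out. In brain the genotypes lay on different chips, so chip and genotype cannot be told apart there.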

How the results depend on the processing

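Alternative settings left the count of called features at 0 in 18 of 21 cases. It was 2 with all 27 arrays normalised together (the unnamed ILMN_1234756 and Asic5), 1 without the filter on dim probes (ILMN_1234756), and 0 to 1 with each liver array left out (A1bg without wild-type array 1). Features at an unadjusted p below 0.05 numbered 1803 of 29453 without the filter and 1461 with array weights, against 846. Mysm1 differed by -0.54 without background correction and by -0.56 in the deposited processed table, and by -1.03 to -0.88 with an array left out. The median half-width of an interval was 0.17 and 0.19 in the same pair of settings, against 0.32. The share of features with an interval within 2-fold was 94.6% to 99.4% over all 21 alternatives. Lists with array means apart numbered 9 to 18. The histone, stellate, portal and central medians kept their sign in every alternative (0.18 to 0.35, -0.53 to -0.26, -0.29 to -0.17 and 0.07 to 0.17), and 8 to 16 histone and 9 to 17 stellate members had an unadjusted p below 0.05, counts chosen after seeing the data. Low signal over background limits the size of differences also above level 5, as for Pdgfra and Rhbg. The female-biased and male-biased medians changed sign without wild-type array 1.

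Samples with the same replicate number did not deviate together (r of -0.07, -0.05 and -0.33), so the numbers were not taken as pairs. With the replicate number as a block 0 features were called (smallest limma adjusted p 0.244), 740 had an unadjusted p below 0.05, 96.7% of intervals lay within 2-fold, 12 lists were apart, and Mysm1 differed by -0.93 with an adjusted p of 0.592. For liver minus brain the block within tissue gave 0 called features. The other settings for liver minus brain gave 1 without background correction and 1 in the processed table (Mif in both), 0 with each tissue normalised alone, 0 with detection on at least 9 of 18 arrays, and 0 to 10 with an array left out, the 10 without wild-type liver array 3. The cause of these moves was not tested.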

Other observations

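Some genes varied most between livers of the same genotype. Cyp7a1, the rate-limiting enzyme of bile acid synthesis, read 12.51, 12.11 and 9.43 on the wild-type arrays and 11.66, 11.46 and 11.50 on the heterozygous ones, so wild-type array 3 alone was low. Erdr1 read 8.13, 8.44 and 4.39 against 4.56, 9.42 and 7.88, with 1 low array in each group. Serpina1e, a serine protease inhibitor of plasma, read 10.65 on heterozygous array 1 against 13.21 and 13.19 on the others. Sult2a2, a sulfotransferase, read 9.10 on heterozygous array 3 against 11.68 and 11.37. Foxq1 read 8.37 and Nfe2, a blood cell transcription factor, 4.78 on heterozygous array 2, each the lowest of the 6 arrays. For Cyp7a1 the 95% interval ran from -1.24 to 1.63, so a difference of more than 2-fold in either direction lay inside it.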
